A study of Mus musculus with 18 samples.

Results

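The 10 genes described here encode parts of the epithelial tight junction: the claudins Cldn2, Cldn3, Cldn4, Cldn7, Cldn8 and Cldn15, the membrane proteins Ocln, Marveld3 and F11r, and the scaffold protein Tjp1. They were chosen by name, with earlier results of these data known, from the 22180 genes tested on the array. Each was taken on the probe set whose annotation held that single gene symbol, and every one of the 10 had exactly 1 such probe set. Expression was measured in ileum RNA of 18 B10.BR recipient mice, 1 Affymetrix whole-transcript array per mouse, with each mouse a biological replicate. All mice were 8 to 12 weeks old at transplant, received 11 Gy of total body irradiation on day -1 and 5000000 T cell-depleted marrow cells from C57Bl/6 donors on day 0, and were sampled on day 21. No group was left without irradiation or without a transplant.

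The marrow-only vehicle group (4 mice) received no donor T cells and was gavaged daily with the vehicle of 20% DMSO, 40% PEG400 and 2% citric acid. The marrow-only ICA group (5 mice) received the same marrow and a daily gavage of 150 mg/kg indole-3-carboxaldehyde (ICA) in the same vehicle. ICA is an indole made from tryptophan. In all groups the gavage started on day -1. The T cell vehicle group (4 mice) received marrow with 2000000 purified donor T cells, a transplant that leads to graft-versus-host disease (GvHD), together with vehicle. The T cell ICA group (5 mice) received marrow with the same T cells, and ICA in the same vehicle.

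Tight junctions close the space between neighbouring epithelial cells near their apical end and set which ions and molecules pass between the cells. Claudins form the strands of the junction: Cldn3, Cldn4 and Cldn8 are counted as sealing claudins and Cldn7 was grouped with them here, although its effect on permeability depends on the cell, whereas Cldn2 and Cldn15 form channels that let small cations and water pass. Ocln (occludin) and Marveld3 belong to the MARVEL proteins of the junction, F11r (JAM-A) is an immunoglobulin-type adhesion molecule, and Tjp1 (ZO-1) links the membrane proteins to actin.

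In vehicle-treated mice, Marveld3 and Cldn8 were lower with donor T cells than with marrow alone, and under ICA Marveld3 was lower again. Marveld3 was 1.32-fold lower under vehicle and 1.41-fold lower under ICA, and the 2 groups of each arm did not overlap. Groups without overlap were found for 10.5% of all genes under vehicle and 3.33% under ICA. Cldn8 was 3.46-fold lower under vehicle and did not pass under ICA, where the marrow-only mice ranged from 6.02 to 8.21. The other 8 genes passed in neither comparison, and none of the 10 passed for ICA against vehicle in either arm, at an adjusted p under 0.05.

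**Figure D1:**
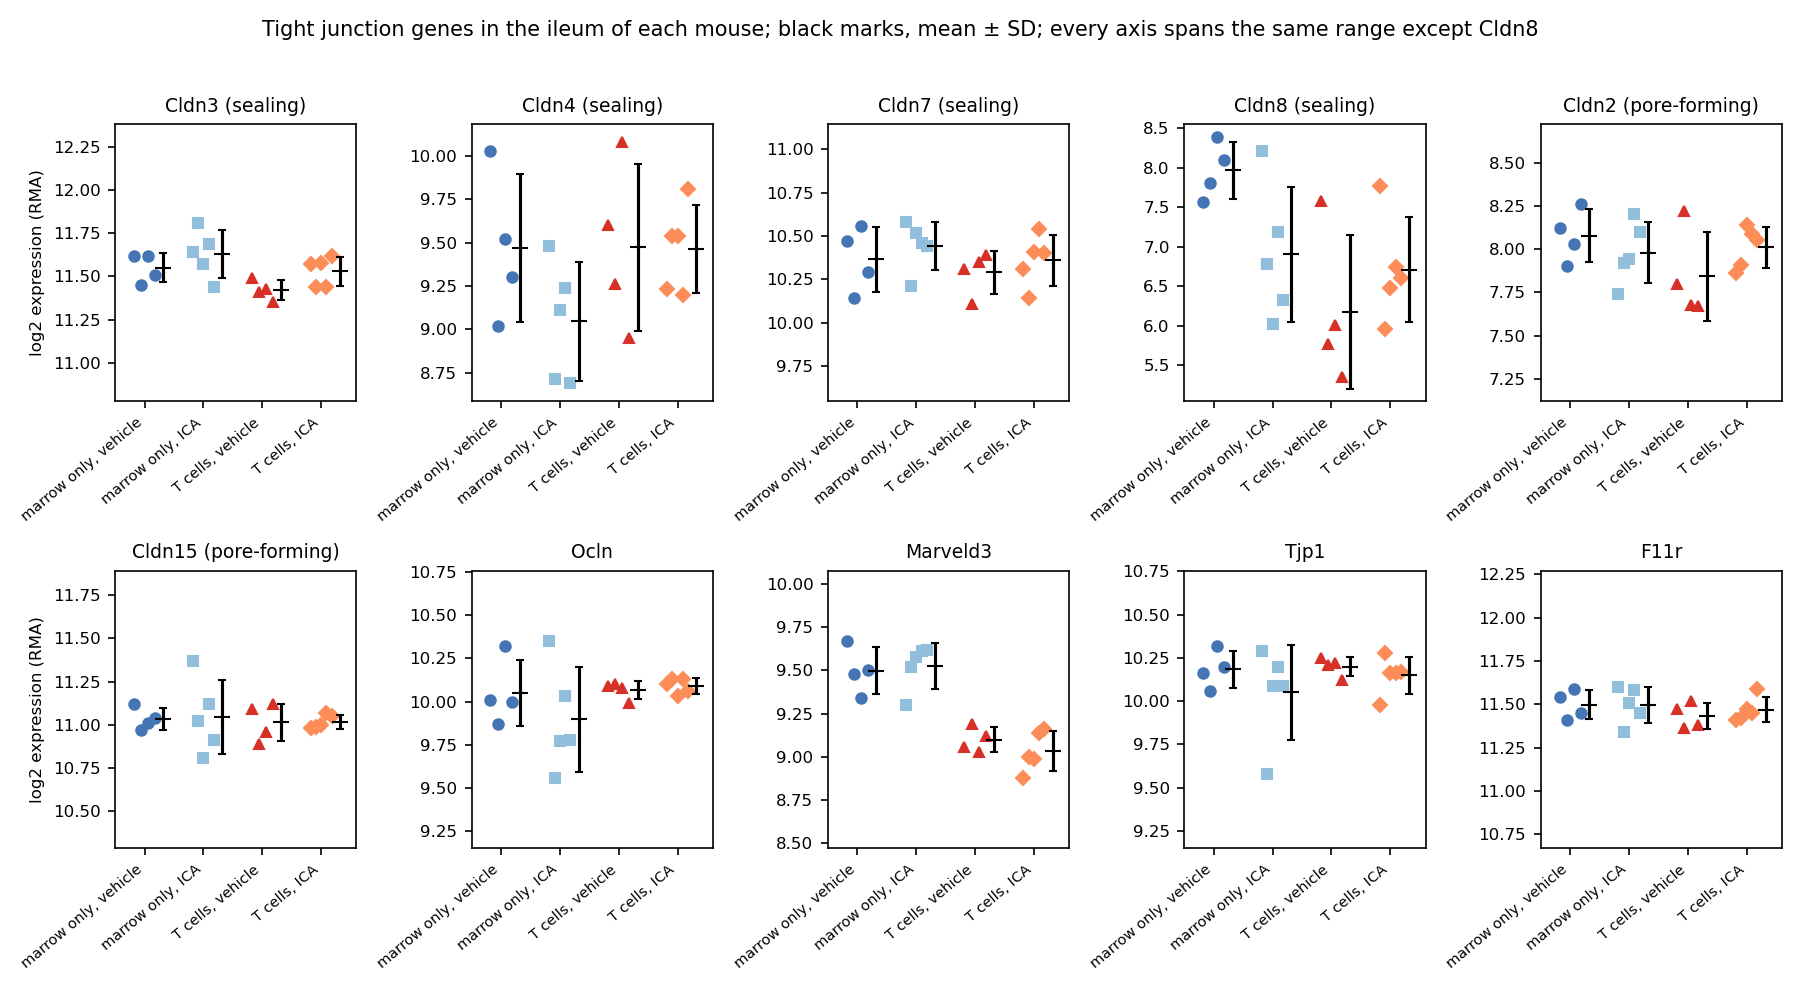
Log2 expression of the 10 tight junction genes in each of the 18 mice, by group, with the mean and SD of each group in black. Marveld3 lies between 9.30 and 9.67 in the marrow-only mice and between 8.88 and 9.19 in the T cell mice, and Cldn8 runs from 5.36 to 8.39.

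The values are log2 expression values, and the median of an array lay between 6.47 and 6.51. Ileal epithelial markers were high in every mouse, with Epcam between 11.52 and 11.86 and Fabp6, the ileal bile acid-binding protein, between 11.81 and 12.71. The colon marker Car1 (carbonic anhydrase 1) was between 8.94 and 12.04 in 4 mice and between 4.75 and 6.45 in the other 14. The 4 were marrow-only ICA mouse 3, T cell vehicle mouse 2 and T cell ICA mice 1 and 5. Cyp2c55, another colon marker, was 10.59 to 11.40 in these 4 and 6.91 to 11.18 in the other 14. Aqp8, also a colon marker, was 7.21 in marrow-only ICA mouse 3. In T cell vehicle mouse 2 and T cell ICA mice 1 and 5, Aqp8 was 5.17 to 5.63, against 5.21 to 5.98 in the other 14. Aqp8 thus did not follow Car1 in all 4. Lct (lactase), a marker of more proximal intestine, reached 10.06 in marrow-only ICA mouse 1 against at most 7.23 elsewhere. Mouse 3 of the marrow-only vehicle group, mouse 1 of the marrow-only ICA group and mouse 1 of the T cell ICA group lay together at the upper end of the second principal component of all genes, with scores of 19.51 to 20.5 and a next highest score of 10.11. At the lower end mouse 3 of the marrow-only ICA group, with the highest Car1, lay alone at -24.95, with a next lowest score of -13.05. The values without the 3 upper arrays, without these 4 arrays and without the 5 arrays high in Car1 or Lct are given beside the calls and beside the uncalled differences described most fully. The RNA came from whole tissue, so fewer epithelial cells and less RNA per cell cannot be told apart.

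Cldn8 was the sealing claudin that fell in the T cell vehicle mice. Its values were 7.56, 7.81, 8.39 and 8.10 in the marrow-only vehicle mice and 7.58, 5.77, 6.01 and 5.36 in the T cell vehicle mice. In the ICA arm they were 8.21, 6.78, 6.02, 7.18 and 6.33 without T cells and 7.77, 5.96, 6.48, 6.74 and 6.61 with them. The marrow-only vehicle mice were uniformly high, and 3 of 4 T cell vehicle mice were far below them. These 3 values lay under the array medians of 6.47 to 6.51, and no detection calls were used. T cell vehicle mouse 1 lay just above the lowest marrow-only vehicle value, so the vehicle groups overlapped. In the ICA arm 1 mouse of each group was high and the groups overlapped over most of their range.

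Group means of Cldn8 were 7.97 ± 0.36 (SD, n = 4) for marrow-only vehicle and 6.18 ± 0.97 (n = 4) for T cell vehicle mice, and 6.90 ± 0.85 (n = 5) and 6.71 ± 0.66 (n = 5) for the marrow-only and T cell ICA mice. With T cells under vehicle Cldn8 fell by 1.79 ± 0.45 (SE) on the log2 scale, with a 95% interval of -2.72 to -0.86 and an adjusted p of 0.048 (limma, Benjamini-Hochberg over 22180 genes). Under ICA the difference was -0.19 ± 0.40 (interval -1.02 to 0.64, adjusted p = 0.878). The T cell differences of the 2 arms differed by 1.60 ± 0.60 (interval 0.35 to 2.85), which did not pass (adjusted p = 0.71), so a smaller T cell difference under ICA was not established.

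For ICA against vehicle, neither difference of Cldn8 passed. Without and with T cells they were -1.06 ± 0.42 (interval -1.95 to -0.18, adjusted p = 0.635) and 0.54 ± 0.42 (interval -0.35 to 1.42, adjusted p = 0.868). The call of Cldn8 under vehicle depended on single mice: leaving out any of the 8 mice in turn moved the difference between -2.26 and -1.52 and lost the call in 7 of 8 omissions, with adjusted p between 0.00693 and 0.156. It was kept only without T cell vehicle mouse 1, the mouse with the high value. Without the 3 upper arrays the difference was -1.65 (adjusted p = 0.0205, and 0.0176 without the 4 arrays), and without the 5 arrays high in Car1 or Lct it was also -1.65 (adjusted p = 0.0312).

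Cldn8 tended to be high where T cell markers were low, most clearly in the top mouse of each group. Each of the 3 upper arrays held the highest Cldn8 of its group, and mouse 3 of the marrow-only ICA group, at the lower end, held the lowest of its group (6.02). In 4 of 4 groups the mouse with the highest Cldn8 had the lowest mean of 6 T cell markers (Cd3e, Cd3d, Cd3g, Cd8a, Cd8b1 and Cd4). That mean was 6.74 in marrow-only vehicle mouse 3, where Cldn8 was 8.39, and 7.90 in T cell vehicle mouse 1, where Cldn8 was 7.58. Among T cell vehicle mice 2, 3 and 4 the 2 rose together, with Cldn8 at 5.77, 6.01 and 5.36 and means of 8.54, 8.89 and 8.13. The remaining T cell ICA mice kept the inverse order, and in the remaining mice of both marrow-only groups the order was mixed. Over the 18 mice Cldn8 and the marker mean had a Pearson r of -0.78 and a Spearman rho of -0.75, and r was -0.74 after the group means were removed. That value was -0.52 without the 3 upper arrays, -0.51 without the 4 and -0.53 without the 5. The relation was not particular to Cldn8. With group means removed, Ocln and Cldn15 were at -0.66 and -0.62 with the marker mean, and the remaining members between -0.42 and 0.44. Cldn15 was at -0.75 without the 4 arrays and -0.64 without the 5, and Ocln at -0.44 and -0.61. Cldn8 also followed the mean of 7 genes listed as markers of other intestinal segments (Slc40a1, Cybrd1, Fabp1, Apoa4, Lct, Gata4 and Sis). That r was 0.62 with group means removed and 0.47 without the 5 arrays. With the mean of the ileal epithelial markers it was 0.51, and with the remaining marker lists between -0.17 (colon) and 0.20 (smooth muscle), group means removed. These points share the array and the tissue piece, and the correlation is given as a description. Of the 6 markers 4 rose with T cells under vehicle (Cd3e, Cd3g, Cd8a and Cd8b1), and their summed linear signal was 693 to 1154 in the marrow-only mice and 1762 to 4010 in the T cell mice. Under ICA 2 rose (Cd8a and Cd8b1) and Cd4 fell, with sums of 789 to 1800 and 1854 to 3250. The part of the T cells, of the intestinal segment or of epithelial content in the fall of Cldn8 was not tested.

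**Figure D2:**
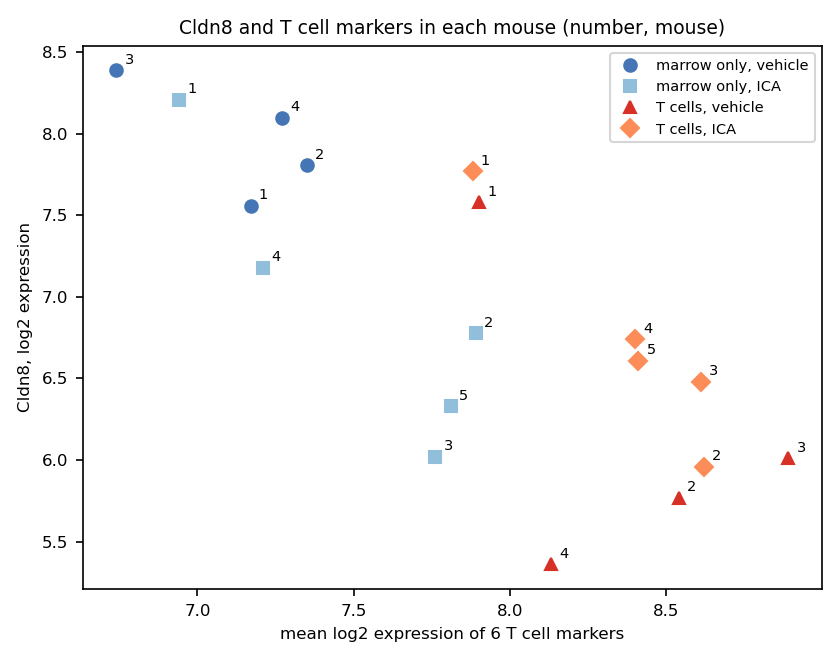
Cldn8 (log2 expression, vertical axis) against the mean log2 expression of 6 T cell markers (horizontal axis), 1 numbered point per mouse and a colour and shape per group. Mice with the highest Cldn8 of their group lie furthest left in each of the 4 groups.

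The other sealing claudins did not pass in any comparison. Cldn4, a claudin of surface epithelium that also binds a clostridial enterotoxin, varied most of them between mice. It was 10.03, 9.02, 9.52 and 9.30 in marrow-only vehicle mice and 9.60, 9.26, 10.08 and 8.95 in T cell vehicle mice. In the ICA arm it was 9.48, 8.71, 9.11, 9.24 and 8.69 without T cells and 9.23, 9.54, 9.54, 9.20 and 9.81 with them. The vehicle groups covered the same range, while the marrow-only ICA mice tended to be low, with 2 of them under every other mouse.

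The T cell difference of Cldn4 was 0.00 ± 0.23 under vehicle and 0.42 ± 0.20 under ICA (interval -0.01 to 0.84, adjusted p = 0.311). In marrow-only mice the ICA difference was -0.42 ± 0.22 (interval -0.87 to 0.03, adjusted p = 0.665). Without the 4 arrays at both ends the T cell difference under ICA was 0.64 (adjusted p = 0.154). Cldn3, a sealing claudin made along the whole intestine, ranged from 11.35 to 11.49 in T cell vehicle mice and from 11.44 to 11.81 over the other 3 groups. Its T cell differences were -0.13 ± 0.07 under vehicle and -0.10 ± 0.07 under ICA. Cldn7 ranged from 10.11 to 10.58 over all mice, with T cell differences of -0.07 ± 0.10 and -0.08 ± 0.09 in the vehicle and ICA arms.

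The pore-forming claudins showed no call either. Cldn2, which the intestine makes mostly in crypts, was 8.12, 7.90, 8.03 and 8.26 in marrow-only vehicle mice and 7.80, 8.22, 7.68 and 7.67 in T cell vehicle mice. Of these T cell mice 3 lay under every marrow-only vehicle mouse and mouse 2 lay near the top. The difference was -0.23 ± 0.12 (interval -0.48 to 0.02, adjusted p = 0.427), and under ICA it was 0.03 ± 0.11. Mouse 2 was a mouse high in Car1. Without it the Cldn2 difference was -0.36, the largest of the 8 omissions, with adjusted p no lower than 0.155 in any of them and 0.0804 without all 5 arrays high in Car1 or Lct. For ICA against vehicle in T cell mice the Cldn2 difference was 0.17 ± 0.11 (adjusted p = 0.822), and 0.33 without the 5 arrays (adjusted p = 0.556).

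Cldn15, which in the small intestine lets sodium pass back into the lumen, ranged from 10.97 to 11.12 in the marrow-only vehicle mice, 10.89 to 11.12 in the T cell vehicle mice and 10.98 to 11.07 in the T cell ICA mice. The marrow-only ICA mice were 11.37, 11.02, 10.81, 11.12 and 10.91. Mouse 1 of that group, with the highest Cldn15 of all, was the mouse high in Lct, and mouse 3, with the lowest, was the one with the highest Car1. Cldn15 correlated with the mean of the 7 genes listed for other intestinal segments at r = 0.90, a description over 18 mice. Spearman rho was 0.71, and r was 0.91 with group means removed. With group means removed it was 0.67 without the 4 arrays at both ends and 0.54 without the 5. Of the 7 genes, Sis (11.35 to 12.99) and Apoa4 (9.50 to 11.43) were high in every mouse. Cldn15 also correlated with the ileal epithelial marker mean at 0.84 and with the T cell marker mean at -0.62, with group means removed. Without the 4 arrays the T cell value was -0.75. Where along the intestine each piece lay was not tested as a source of these values.

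Sealing and pore-forming claudins were contrasted within each mouse on values relative to each gene's own marrow-only vehicle mean, since levels of different probe sets are not comparable. The mean of the 4 sealing claudins minus that of the 2 pore-forming claudins was 0.02, -0.11, 0.22 and -0.13 in the marrow-only vehicle mice. It was 0.01, -0.70, -0.14 and -0.66 in the T cell vehicle mice. It was 0.14, -0.37, -0.35, -0.31 and -0.56 in the marrow-only ICA mice and 0.01, -0.46, -0.35, -0.38 and -0.22 in the T cell ICA mice. The balance was thus lower in most mice of the 3 other groups than in the marrow-only vehicle mice, and each of the 3 groups also held 1 mouse at or above 0.

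The group means of this balance were -0.37 ± 0.36 (SD) for T cell vehicle, -0.29 ± 0.26 for marrow-only ICA and -0.28 ± 0.19 for T cell ICA mice. Cldn8 carried these values: without it the means were 0.06 ± 0.26, -0.05 ± 0.15 and 0.03 ± 0.09, and the sign turned for the T cell vehicle and T cell ICA mice. The order of the T cell groups was not stable: the difference of ICA against vehicle in T cell mice was 0.091 with all mice, 0.017 without the 3 upper arrays and -0.135 without the 5 arrays high in Car1 or Lct. With T cells under vehicle the difference was -0.370 with all mice, -0.297 without the 3 upper arrays and -0.261 without the 5. The sealing claudins without Cldn8 and the pore-forming claudins stayed close to the marrow-only vehicle mean, the former between -0.27 and 0.25 and the latter between -0.23 and 0.11 in every mouse.

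**Figure D3:**
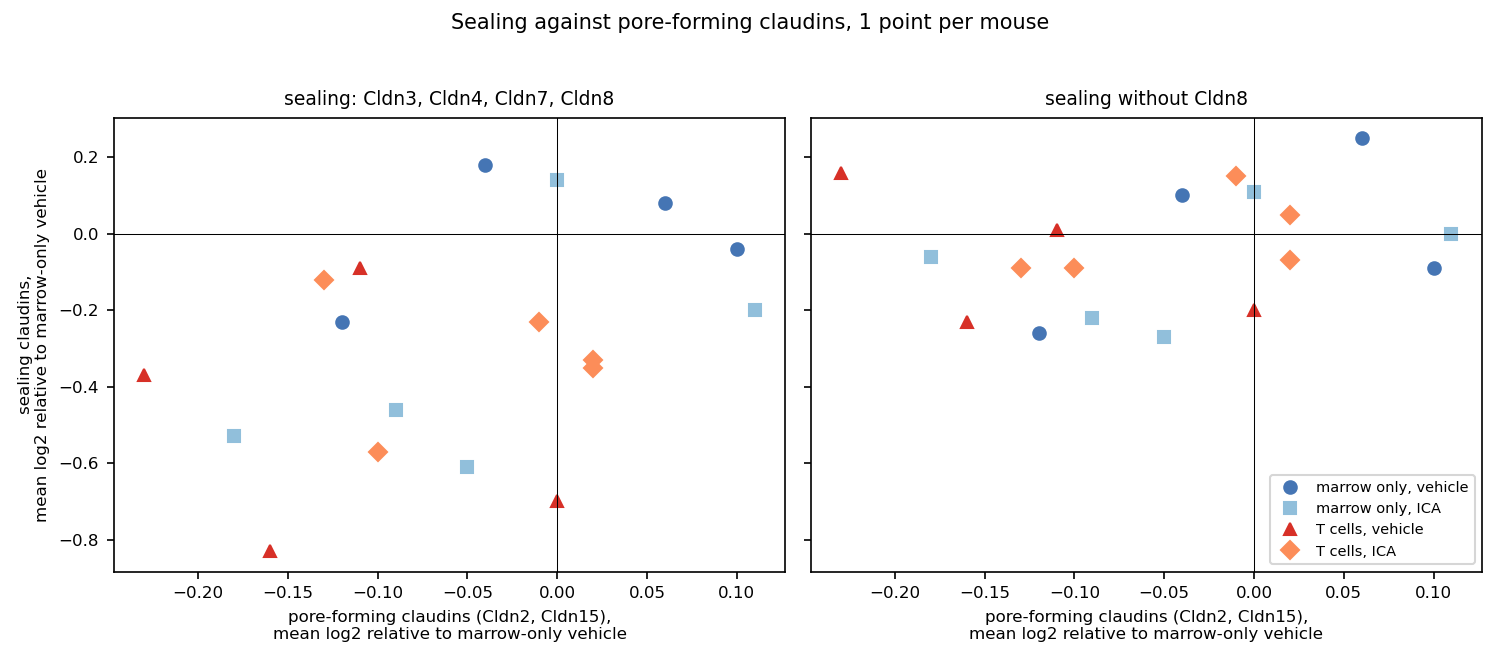
Mean log2 value of the sealing claudins (vertical axis) against that of the pore-forming claudins (horizontal axis), each gene relative to its mean in the marrow-only vehicle group, 1 point per mouse. With Cldn8 (left) 2 T cell vehicle mice reach -0.70 and -0.83, and without it (right) all mice lie between -0.27 and 0.25.

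Marveld3, a MARVEL protein of tight junctions that also restrains a stress-kinase pathway in epithelial cells, was the member that fell in both arms. It was 9.67, 9.48, 9.34 and 9.50 in marrow-only vehicle mice and 9.06, 9.19, 9.03 and 9.12 in T cell vehicle mice. In the ICA arm it was 9.30, 9.52, 9.58, 9.61 and 9.62 without T cells and 8.88, 8.998, 8.99, 9.14 and 9.16 with them. Every T cell mouse was lower than every marrow-only mouse. Within an arm, groups without overlap were found for 10.5% of all genes under vehicle and 3.33% under ICA. The separation was not particular to Marveld3. The protease gene St14, described below, was at most 10.72 in the T cell mice and at least 10.76 in the marrow-only mice.

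Group means of Marveld3 were 9.50 ± 0.14 (SD) and 9.10 ± 0.07 under vehicle, and 9.53 ± 0.13 and 9.03 ± 0.12 under ICA. With T cells it fell by 0.40 ± 0.09 (SE) under vehicle (interval -0.58 to -0.22, 1.32-fold lower, adjusted p = 0.0235) and by 0.49 ± 0.08 under ICA (interval -0.66 to -0.33, 1.41-fold lower, adjusted p = 0.00103; limma). The difference between the arms was -0.10 ± 0.12 (adjusted p = 0.898). ICA moved Marveld3 by -0.07 ± 0.08 in T cell mice and by 0.03 ± 0.08 in marrow-only mice, and neither passed.

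The fall of Marveld3 in the ICA arm kept its call in all 10 omissions of 1 mouse, between -0.55 and -0.45 with adjusted p of 0.000118 to 0.00517. Under vehicle the difference stayed between -0.45 and -0.34, but the call was lost in 6 of 8 omissions, with adjusted p up to 0.0956. Without the 3 upper arrays the differences were -0.45 and -0.51, and without the 5 arrays high in Car1 or Lct they were -0.43 and -0.54. All 4 of these passed, with adjusted p of 0.002, 0.00013, 0.0129 and 0.00268. Without the 4 arrays they were also -0.45 and -0.51 (adjusted p = 0.00255 and 0.000536).

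Marveld3 is an epithelial gene, and some markers of other cell types differed in the same comparisons, up or down. All 8 smooth muscle markers (among them Acta2, Myh11 and Des) rose with T cells under ICA, by 0.25 to 0.61 on the log2 scale. Under vehicle 0 of 8 passed, but all 8 differences were positive, from 0.17 to 0.47. Their summed linear signal was 12204 to 14173 in marrow-only and 15240 to 20444 in T cell ICA mice, and 11989 to 14286 and 14854 to 18341 in the vehicle mice. Marveld3 correlated with the smooth muscle mean at r = -0.73 over 18 mice, and at 0.08 once group means were removed. Of 10 ileal epithelial markers (among them Epcam, Vil1 and Cdh17) 0 passed in any comparison, and their list mean was 12.05 to 12.42 in all mice. Of 11 markers of Peyer patches, the lymphoid follicles of the ileum, 1 fell with T cells under vehicle (Cd79a) and 4 fell under ICA (Cd79a, Cxcl13, Cr2 and Ms4a1). Their summed signal was 2142 to 2785 and 2305 to 2625 in the marrow-only and T cell vehicle mice, and 2305 to 3485 and 1974 to 2648 in the ICA mice. Marveld3 correlated with their mean at 0.72, and at 0.12 with group means removed. With the T cell marker mean it was at -0.64, and at 0.44 with group means removed. Of the remaining lists, 0 of 12 colon and 0 of 8 crypt base markers passed in any comparison, the endothelial Cdh5 rose, Sis rose and Slc40a1 fell under ICA. The parts of smooth muscle and lymphoid RNA in the fall of Marveld3 were not tested.

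**Figure D4:**
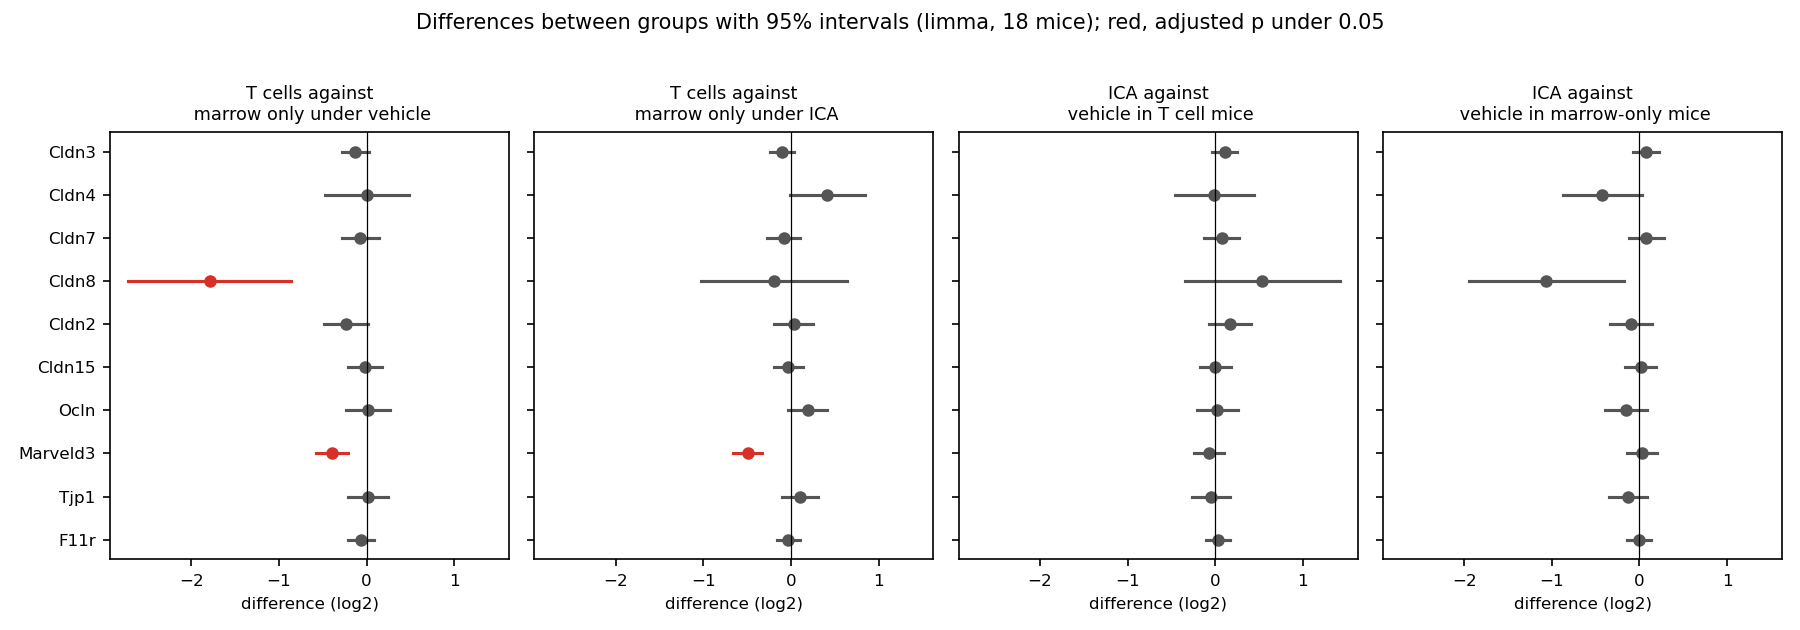
Differences in log2 expression with 95% intervals for the 10 genes in 4 comparisons (limma, 18 mice), with red for an adjusted p under 0.05. Red marks Cldn8 at -1.79 and Marveld3 at -0.40 under vehicle, and Marveld3 at -0.49 under ICA.

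Set against all genes, 2 of the 10 members passed with T cells under vehicle, where 1.47% of the 22180 genes passed, and 1 of 10 under ICA, where 3.12% passed. The members were chosen with earlier results of these data known, so these shares are a description and no test of enrichment. Both calls under vehicle depended on single mice. The groups did not overlap for 1 of 10 members under vehicle, a share near the 10.5% of all genes, and for 1 of 10 under ICA, against 3.33% of all genes. The median difference of the members was -0.07 under vehicle and -0.03 under ICA, beside 0.01 and -0.01 over all genes. Marveld3 was the member without overlap in both arms, and these comparisons use different mice.

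No member passed for ICA against vehicle. In T cell mice 0 of 10 passed in limma, against 0.0135% of all genes, and 0 had an unadjusted p under 0.05. In marrow-only mice 0 of 10 passed, against 0.00451% of all genes, and 1 (Cldn8) had an unadjusted p under 0.05. For the interaction 0 of 10 passed, against 0% of all genes, and again 1 (Cldn8) had an unadjusted p under 0.05. Over all genes 6.89%, 7.52% and 6.68% had an unadjusted p under 0.05 in these 3 contrasts, so 1 of 10 is near the background. No member's groups were without overlap, against 2.89% and 2.18% of all genes in the T cell and marrow-only mice. Member medians were 0.03, -0.05 and 0.06 for these 3 contrasts, beside -0.01, 0.01 and -0.02 over all genes.

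The intervals show how large a change the arrays could have missed. The whole 95% interval lay within 0.5 log2 units of 0 for 9 of 10 members for ICA in T cell mice, Cldn8 being the exception, and for 8 of 10 in marrow-only mice, with Cldn4 and Cldn8 as the exceptions. For T cells under vehicle and under ICA it did so for 8 and 7 of 10, without Cldn8 and Marveld3 and, under ICA, Cldn4. For the interaction it did so for 6 of 10, without Cldn2, Cldn4, Cldn8 and Ocln.

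Ocln, Tjp1 and F11r passed in no comparison. Ocln, which helps to organise the strands, was 10.01, 9.87, 10.32 and 9.998 in marrow-only vehicle and 10.09, 10.10, 10.08 and 9.99 in T cell vehicle mice. In the ICA arm it was 10.35, 9.56, 9.77, 10.03 and 9.78 without T cells and 10.10, 10.13, 10.03, 10.13 and 10.06 with them. The T cell mice were tightly grouped in both arms, and the marrow-only ICA mice were spread around them.

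The T cell difference of Ocln was 0.01 ± 0.12 under vehicle and 0.19 ± 0.11 under ICA (interval -0.03 to 0.42, adjusted p = 0.396). Marrow-only ICA mouse 1, high in Ocln and in Lct and one of the 3 upper arrays, decided the second value. Without that mouse the difference was 0.30 and passed (adjusted p = 0.0433), as it did without the 3 arrays (0.30, adjusted p = 0.028), whereas without the 4 arrays or the 5 arrays it was 0.30 in both cases and did not pass (adjusted p = 0.0635 and 0.197).

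Tjp1 ranged from 10.06 to 10.32 in marrow-only vehicle, 10.12 to 10.25 in T cell vehicle and 9.98 to 10.28 in T cell ICA mice. Among the marrow-only ICA mice, 4 lay between 10.09 and 10.29 and mouse 2 was at 9.58. Its T cell differences were 0.02 ± 0.11 under vehicle and 0.10 ± 0.10 under ICA. F11r stayed between 11.34 and 11.60 in all mice, with T cell differences of -0.07 ± 0.07 and -0.03 ± 0.06 in the 2 arms.

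Between mice, Ocln and Tjp1 varied together, and F11r followed them less closely. With group means removed, r was 0.79 between Ocln and Tjp1, 0.71 between Tjp1 and F11r and 0.68 between Ocln and F11r over 18 mice. Cldn4 and Cldn7 followed F11r, at 0.81 and 0.70. For Ocln and Tjp1 the plain r was 0.81 and rho 0.75, and r was 0.64 without the 2 mice farthest from the median. For Tjp1 and F11r the plain r was 0.55 and fell to 0.40 without such mice, and for Ocln and F11r it was 0.50 and fell to 0.20. With group means removed, Ocln and F11r were at 0.59, 0.62 and 0.87, and Ocln and Tjp1 at 0.87, 0.90 and 0.86, without the 3 upper, the 4 and the 5 arrays. The members share each mouse's array and its epithelial content, and no p is given.

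Over all 45 pairs of members the group-centred r ran from -0.59 to 0.81 with a median of 0.27, and 10 pairs were over 0.5. The lone pair under -0.5 was Cldn8 with Marveld3, and it rested on a few arrays: the group-centred r was -0.14 without the 3 upper arrays, and the plain r was 0.23, or 0.25 without the 2 mice farthest from the median. Cldn2 was at -0.10 with Ocln, 0.14 with Tjp1 and -0.08 with F11r, but at 0.37, 0.51 and 0.48 with the same genes without the 5 arrays high in Car1 or Lct.

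**Figure D5:**
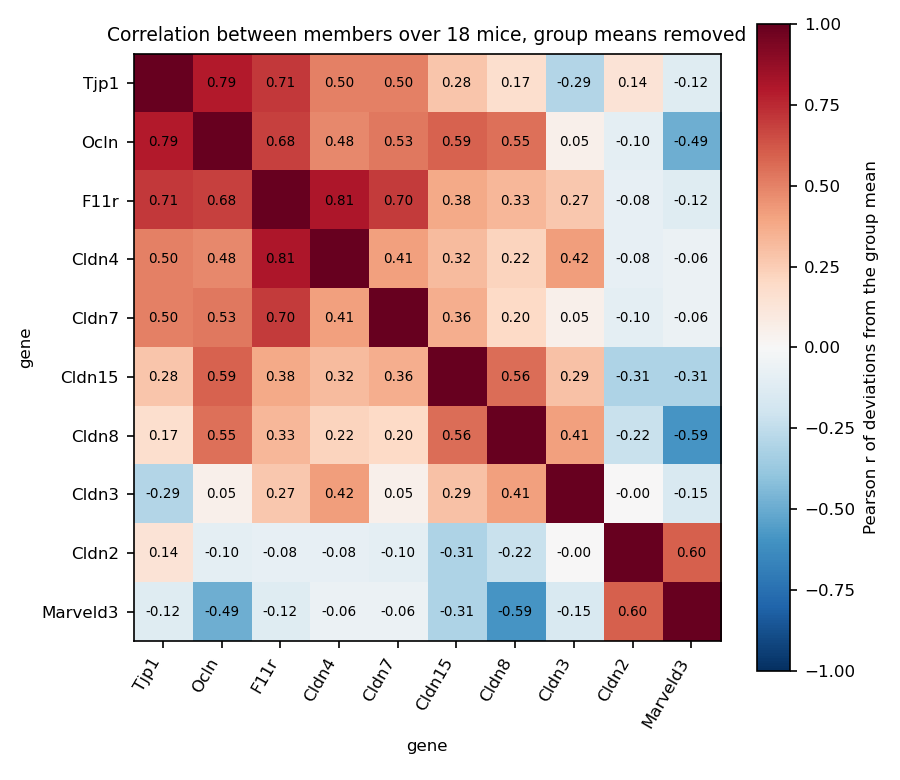
Pearson r between the members over 18 mice after removal of group means, with the value in each cell. Tjp1, Ocln, F11r, Cldn4 and Cldn7 form a block of positive values from 0.41 to 0.81, and Cldn8 and Marveld3 stand at -0.59.

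The promoter sequences of Ocln and Tjp1, which varied together, are shown with those of F11r and Cldn2 for comparison. Each is the 250 bases before a gene start listed by RefSeq on GRCm38.p6, written 5′ to 3′ on the gene's strand, and 8 of the 10 members had an entry. They are Ocln at chr13:100552719-100552968 (minus strand), Tjp1 at chr7:65371245-65371494 (minus strand), F11r at chr1:171437311-171437560 (plus strand) and Cldn2 at chrX:139800558-139800807 (plus strand). Capitals mark a GC box (GGGCGG or its reverse complement) in the first 3 and a TATA box in the last.
Ocln: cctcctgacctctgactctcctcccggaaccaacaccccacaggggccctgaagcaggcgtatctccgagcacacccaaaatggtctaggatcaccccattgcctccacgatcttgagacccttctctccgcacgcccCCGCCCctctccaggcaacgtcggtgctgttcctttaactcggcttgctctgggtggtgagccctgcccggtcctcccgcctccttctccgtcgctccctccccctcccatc
Tjp1: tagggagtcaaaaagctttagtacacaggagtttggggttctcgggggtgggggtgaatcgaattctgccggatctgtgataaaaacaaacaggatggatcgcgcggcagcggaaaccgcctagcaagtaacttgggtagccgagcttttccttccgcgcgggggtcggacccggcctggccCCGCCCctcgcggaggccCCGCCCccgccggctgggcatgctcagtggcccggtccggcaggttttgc
F11r: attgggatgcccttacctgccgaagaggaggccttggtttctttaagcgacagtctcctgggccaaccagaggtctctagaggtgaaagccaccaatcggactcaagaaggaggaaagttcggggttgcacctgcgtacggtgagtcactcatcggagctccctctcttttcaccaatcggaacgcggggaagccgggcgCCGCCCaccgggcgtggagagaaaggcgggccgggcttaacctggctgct
Cldn2: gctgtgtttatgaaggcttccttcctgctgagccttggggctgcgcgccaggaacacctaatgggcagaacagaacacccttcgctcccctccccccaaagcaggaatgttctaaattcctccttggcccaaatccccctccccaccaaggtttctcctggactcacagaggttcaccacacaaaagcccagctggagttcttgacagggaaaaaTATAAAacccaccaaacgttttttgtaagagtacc

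In these windows the GC box began 112 bases before the start in Ocln, 68 and 50 before it in Tjp1 and 50 before it in F11r. Searched on both strands, GGGCGG was in 8 of the 10 member promoters, which include 2 starts each for Ocln and Cldn7, and in 32.7% of 32851 mouse promoters of the same length. The match also fell in Cldn3, Cldn4, Cldn15 and a start of Cldn7, so it did not mark out Ocln and Tjp1. TATAAA lay 35 bases before the start of Cldn2 and in 12.4% of all promoters. CACGTG, AACCNGTT and CAAAGTCCA, in 6.02%, 1.79% and 0.384% of all promoters, were not in any member window. A match is a match of letters and says nothing of binding.

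Around the members, 80 of 82 listed genes of the junctions and their control were measured. They were 17 other claudins, 27 other tight junction genes, 16 genes of adherens junctions and desmosomes, and 20 regulators. With T cells under vehicle 0 of the 80 passed in limma, and 14 (17.5%) had an unadjusted p under 0.05, against 13% of all genes. Under ICA 3 fell and 0 rose, a share near the 3.12% of all genes, with 16 (20%) at an unadjusted p under 0.05 against 16.6% of all genes. The 3 were Cldn12, a claudin linked to calcium passage, Igsf5 (JAM-4), an adhesion molecule of the F11r kind, and St14 (matriptase), a membrane protease that acts on epithelial junctions.

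Cldn12 was 8.52, 8.51, 8.51, 8.43 and 8.49 in marrow-only ICA mice and 8.31, 8.05, 8.18, 8.20 and 7.87 in T cell ICA mice. The ICA groups did not overlap for Cldn12 and St14 and overlapped slightly for Igsf5, against 3.33% of all genes without overlap. Cldn12 fell by 0.37 ± 0.08 on the log2 scale (adjusted p = 0.00782). Igsf5 fell by 0.35 ± 0.07 (adjusted p = 0.00934) and St14 by 0.24 ± 0.06 (adjusted p = 0.0202). All 3 calls were lost when only the 2 groups compared were fitted, and Cldn12 alone was called without the 4 arrays at both ends. Under vehicle the same 3 genes had differences of -0.14 ± 0.08, -0.29 ± 0.08 and -0.18 ± 0.06, with adjusted p of 0.528, 0.0764 and 0.186. The vehicle groups overlapped for Cldn12 and not for Igsf5 and St14, against 10.5% of all genes without overlap. All 8 smooth muscle markers rose in this ICA comparison, as for Marveld3, and their part was not tested.

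Other genes of each list, taken by their smallest p over the 5 comparisons, did not pass. Cldn23 differed by -0.29 ± 0.10 with T cells under vehicle (adjusted p = 0.137), Dsc2, a desmosomal cadherin, by -0.30 ± 0.09 (adjusted p = 0.101, and by -0.21 ± 0.08 under ICA with adjusted p = 0.164), and Lsr, a protein of tricellular contacts, by -0.22 ± 0.07 (adjusted p = 0.157). Cdx2, an intestinal transcription factor, differed by 0.33 ± 0.09 under vehicle (adjusted p = 0.0643). Under ICA, Pkp2 of the desmosome differed by -0.22 ± 0.09 (adjusted p = 0.188) and Nectin1 by -0.19 ± 0.09 (adjusted p = 0.296). Mpp5, a polarity scaffold, differed by -0.46 ± 0.13 for ICA in T cell mice (adjusted p = 0.356). For ICA against vehicle 0 of 80 passed in both arms, with 6 (7.5%) and 4 (5%) at an unadjusted p under 0.05, and 0 of 80 passed for the interaction, with 2 (2.5%). Over all genes those shares were 6.89%, 7.52% and 6.68%, near or above the counts here.

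The genes whose levels over the 18 mice were most like a member's were named by the highest Pearson r. For Marveld3 they were Slc37a1, Sbno2 and Plekhm1 (all r = 0.94), which dropped to 0.71, 0.75 and 0.68 with group means removed. For Cldn8 they were Bnip5 (0.87), Samd5 (0.85) and Npas2 (0.84). For Ocln they were Fam83b (0.93), Hnf4g (0.92) and Nudt4 (0.92), and for Tjp1 they were Clock, Adss and Pkn2 (all 0.92). Without the 2 mice farthest from the median of Tjp1 these fell to 0.59, 0.67 and 0.73.

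The nearest genes were Nt5e, Gprc5a and 4931406H21Rik for Cldn4 (all 0.87), Ocel1 (0.89), Snord66 (0.84) and Lemd2 (0.83) for Cldn3, and Socs6 (0.79), Sirt4 (0.79) and Rars2 (0.77) for Cldn7. Plb1 (0.85), Cradd (0.84) and Enpp3 (0.82) were nearest to Cldn15, and Enpp3 fell to 0.33 without the 2 mice farthest from the median. Cldn2 had the weakest matches, Tmprss11g (0.73), Pcdhb9 (0.72) and Olfr381 (0.72). For F11r they were Aftph (0.87), Lyrm1 (0.86) and Tut7 (0.84).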

How the data were processed

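Ileum RNA of 18 mice was hybridised by the authors, 1 array per mouse. Per the submitters' processing notes the tools were RMA, Partek and GenomeStudio. Versions, filters and the base of the logarithm were not named there. The deposited values were taken as log2 from their range and were used without further normalization or a filter on low values. The number of arrays limits the precision, and no detection calls were used.

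Of 41345 probe sets, 23521 carried 1 gene symbol, 1814 several and 16010 none in the platform annotation. A gene was tested on its single-symbol probe set with the highest mean, which gave 22180 genes. A linear model with 4 group means was fitted to all 18 arrays in limma 3.58.1 (R 4.3.3), with moderated, trended variances (14 residual degrees of freedom, 6.1 prior) and Benjamini-Hochberg adjustment over all genes. A gene was called at an adjusted p under 0.05, and tests were two-sided. The fit was tested on simulated data.

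The members and lists were chosen with earlier results of these data known. Named were every member, each gene of the other lists that passed, or else up to 3 per list with the smallest p, and the 3 genes most like each member. Marker lists are described by counts and a few examples. Alternatives were the groups in the fit, a replicate block, each mouse left out, quantile normalization, array centring, a filter at 5, the mean of probe sets, no variance trend and array weights. Omitting the 3 arrays at the upper end of the second principal component, these with the 1 at its lower end, or the 5 with Car1 or Lct above 8 was added after seeing the data.

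Mice of the same number were not treated as pairs in the main fit. Over 25 pairs of the same number, the correlation of deviations ran from -0.142 to 0.201, with 3 over 0.1. Over 96 pairs of different numbers it ran from -0.28 to 0.36, with 14 over 0.1. Such values cannot exclude that mice of a number shared a batch. Promoters came from RefSeq tables on GRCm38.p6. Figures were drawn with matplotlib 3.10.9.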

Additional observations from a re-analysis of the deposited data

Results flagged for a closer look

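Within the 40 groups of values formed by the 10 members and the 4 groups of mice, 2 held a mouse far from the others, and chance gives about 1 in 20. Ocln in T cell vehicle mouse 4 was 9.99, with the other 3 mice of the group between 10.08 and 10.10. Tjp1 in marrow-only ICA mouse 2 was 9.58, with the other 4 mice between 10.09 and 10.29.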

How the results depend on the processing

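With T cells under vehicle, the 2 members called became 0 to 1 when each mouse was left out in turn and 1 (Marveld3) without the trend in the prior variance. Both calls were lost on omission of mouse 1, 2 or 4 of the marrow-only vehicle group, or of mouse 3 or 4 of the T cell vehicle group. Marveld3 alone was called on omission of mouse 3 of the former or mouse 2 of the latter group, and Cldn8 alone on omission of mouse 1 of the latter. Under ICA the 1 member called became 1 to 2, the second being Ocln, when a mouse was left out, and 2 without the 3 arrays at the upper end of the second principal component. The balance of sealing and pore-forming claudins with T cells under vehicle was 0.061 without Cldn8. For the other junction genes under vehicle, none called became 2 with only the 2 groups compared, 1 after quantile normalization, 3 with array weights and 1 without the 5 arrays high in Car1 or Lct. Under ICA their 3 calls became 0 with only the 2 groups compared, 2 to 4 when a mouse was left out and 1 without the 4 arrays at both ends.

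With the replicate block the members called were 2 under vehicle and 1 under ICA, and 0 elsewhere, which changed no call. Most of the 1080 member values under alternatives were not called in the main fit and so could not lose a call. In all, 14 lost and 2 gained a call, and the 14 losses fell on Cldn8 and Marveld3 under vehicle. Among called values 0 changed sign, and 86 uncalled values did. The mean of probe sets could not alter the members' values, as each had 1 probe set. The cause of these changes was not tested. With 4 to 5 mice per group, the 95% intervals of every member except Cldn8 and Marveld3 included 0 in every comparison.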
